A study of Bos taurus with 4 samples.

Results

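The pregnancy-associated glycoproteins (PAG) and the trophoblast Kunitz domain proteins (TKDP) were followed in the inner cell mass (ICM) of bovine embryos. All genes that the array's annotation calls PAG or TKDP followed by a number were taken, apart from the ambiguous symbol PAG1. This gave 12 genes with 36 probes, out of 12545 named genes and 43653 gene probes on the array. The 10 PAG genes were PAG2, PAG4, PAG5, PAG6, PAG8, PAG9, PAG10, PAG12, PAG17 and PAG20, with 31 probes, and TKDP1 and TKDP4 had 5 probes. PAG11 has no named probe and was not analysed here.

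Bovine oocytes of mixed breeds, from ovaries collected at a slaughterhouse, were fertilized in vitro with bull sperm and the embryos were kept in synthetic oviductal fluid (SOF), the usual medium for bovine embryos. On day 4 they went either into fresh SOF, the control, or into naïve human stem cell medium (NHSM), and on day 9 the ICMs were cut out of the blastocysts with needles and pooled, 11 to 24 per pool. NHSM is built on KO-DMEM with serum replacement, insulin, glutamine, non-essential amino acids, beta-mercaptoethanol, penicillin and streptomycin, and it adds LIF, bFGF, TGFβ1 and inhibitors of MEK (PD0325901), GSK3 (CHIR99021), PKC (Go6983), JNK (SP600125) and p38 (SB203580). Since the basic media differ as well, a difference between the groups cannot be assigned to any 1 component. Each of 4 two-colour arrays carried 1 NHSM pool and 1 SOF pool, so there were 4 pools of each medium, which the study describes as independent biological replicates. The NHSM pool was in Cy3 on arrays 1 and 3 and in Cy5 on arrays 2 and 4. Dissection by hand does not give pure ICMs, and the study describes such samples as holding some trophectoderm-like cells.

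PAGs are secreted glycoproteins of the aspartic peptidase family that are made by the trophoblast of ruminants, and several are thought to lack peptidase activity. They are grouped by sequence into an ancient group, found throughout the trophectoderm, and a modern group, found mainly in the binucleate cells of the trophoblast, which release PAGs into the maternal blood, where they serve as a test of pregnancy. TKDPs carry a Kunitz domain, the fold of many serine peptidase inhibitors, behind N-terminal domains found in ruminants, and are made by the trophectoderm around the time of implantation. The ICM holds the epiblast, which forms the embryo proper, and the hypoblast, which lines the yolk sac. In the RefSeq annotation 19 PAG symbols lie on chromosome 29, of which 10 are members here, and 3 TKDP symbols lie on chromosome 13, of which 2 are members. Many PAG genes are close copies of each other, and the files give no probe sequences. Which PAG transcripts a probe binds beside the named one is therefore uncertain.

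In each channel a floor was set at the 95th percentile of control spots, and between 44.0% and 72.1% of the gene probes of an NHSM pool and between 48.8% and 67.3% of those of an SOF pool lay above it. Between arrays, the log2 ratios of NHSM over SOF correlated across all gene probes with Pearson's r of 0.56 and 0.59 for the pairs of the same labelling and of 0.06 to 0.19 for the others. A dye effect was fitted for each probe. The epiblast markers NANOG, SOX2 and PRDM14 lay above the floor in all 8 pools, as did the trophectoderm markers GATA3, KRT19 and TFAP2C. Pools of both media thus held transcripts of both lineages. In such pools, fewer cells of a type and less RNA per cell cannot be told apart.

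Of the 36 member probes, 4 were higher in NHSM at an adjusted p under 0.05 (limma, Benjamini-Hochberg over all gene probes), which is 11.1%. Over all gene probes the share was 4.42% higher, and 4.01% lower. Among probes above the floor in all 4 pools of a medium, 4 of 24 member probes (16.7%) and 1816 of 20542 gene probes were higher. The 4 were 3 of the 8 PAG2 probes and the PAG4 probe, and their fitted log2 fold changes lay between 0.35 and 0.45. Of these, PAG2 BTAA025598 alone was above a stricter floor, the 99th percentile of control spots, in all 4 pools of a medium. No member probe was lower by this test, also not at an unadjusted p under 0.05, where 16 were higher (44.4%, against 9.91% of all gene probes). A change of 1.5-fold was reached by 0 member probes, against 1.75% of all gene probes that passed with 1.5-fold or more. Without array 4 the count of higher members was 0, and without array 3 it was 12. The 3 PAG2 probes passed also without array 1, 2 or 3, whereas the PAG4 probe lost the call without array 1 (limma adjusted p = 0.054).

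The ratio was above 0 on all 4 arrays for 12 member probes, or 33.3%, against 11.0% of all gene probes, and below 0 on all 4 for 0 member probes, against 9.95%. The fitted difference was above 0 for 28 of the 36, or 77.8%, against 46.3% of all gene probes. The median log2 fold change was 0.15 over all member probes and -0.01 over all gene probes. Probes of 1 gene and of close copies share their transcripts, so that these counts are not counts of independent measurements. Above the floor in all 4 pools of at least 1 medium were 24 member probes of 10 genes, 22 of them in all 8 pools, and the other 2, of PAG8 and PAG9, through the SOF pools. Of these 24, 19 had a fitted difference above 0 (79.2%), against 9504 of the 20542 gene probes above the floor in this way. The medians were 0.28 and -0.02.

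**Figure D1:**
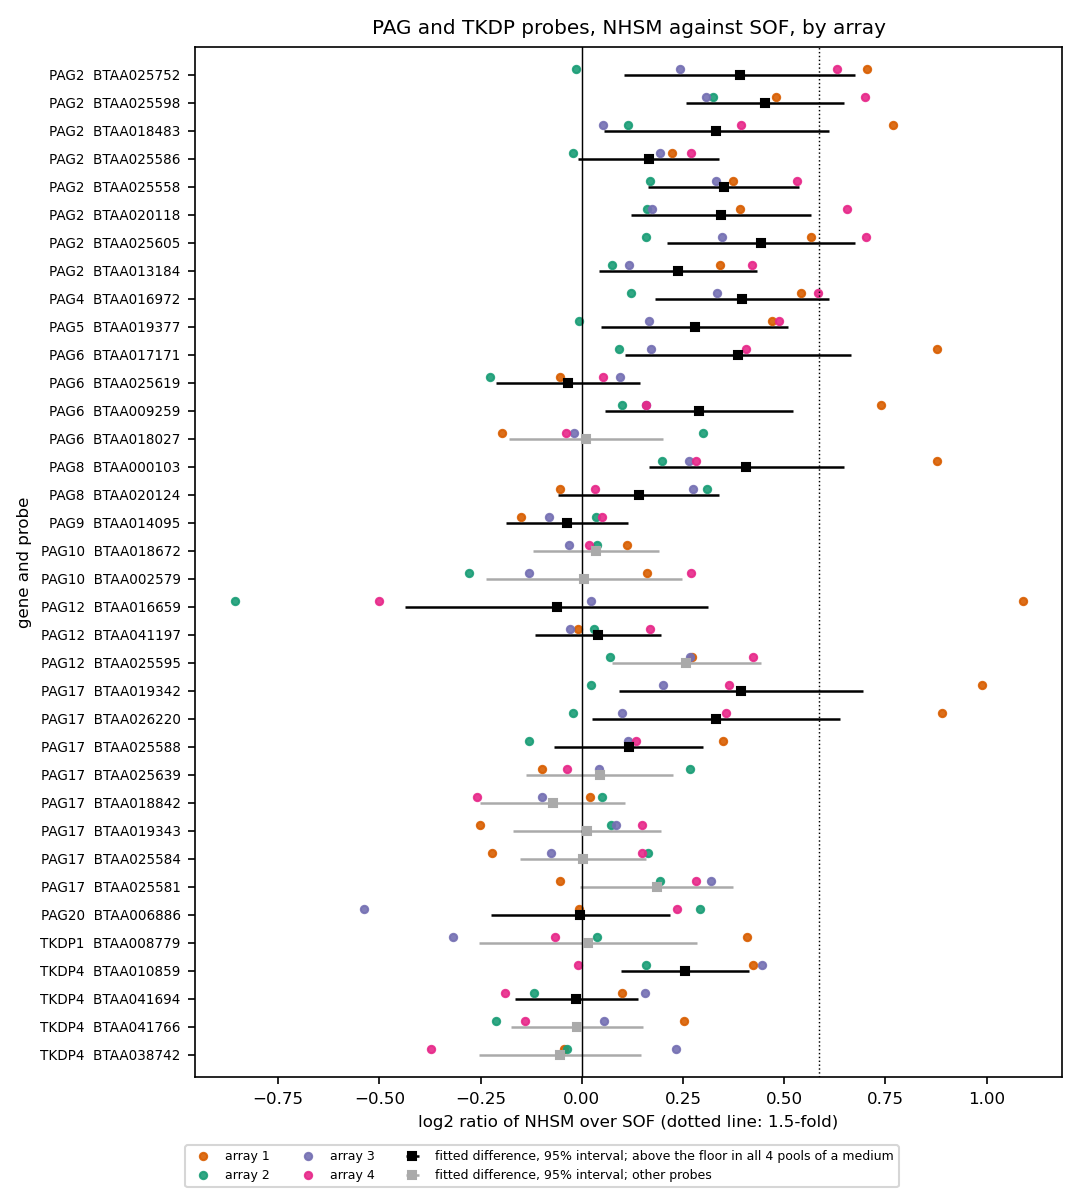
Log2 ratio of NHSM over SOF (horizontal axis) for each of the 36 PAG and TKDP probes (vertical axis), with 1 coloured point per array and the fitted difference as a square with its 95% interval from limma, black where the probe was above the floor in all 4 pools of a medium and grey otherwise. The dotted line marks 1.5-fold. No fitted difference reaches it, and the 8 PAG2 squares all lie right of 0, between 0.17 and 0.45.

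PAG2, of the ancient group, had the most probes, and all 8 were above the floor in every pool. Probe BTAA025598 had normalized log2 intensities of 8.21, 8.77, 8.57 and 8.66 in the NHSM pools of arrays 1 to 4 and of 7.73, 8.44, 8.26 and 7.97 in the SOF pools. NHSM was the higher pool on every array, while the pools of the 2 media overlapped, because the array 1 pools were low in both. The fitted log2 fold change was 0.45 ± 0.08 (SE, n = 4 arrays), a 1.37-fold higher level (limma adjusted p = 0.0183).

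Probe BTAA025605 of PAG2 stood at 7.70, 8.01, 7.84 and 8.22 in NHSM and at 7.13, 7.86, 7.50 and 7.51 in SOF. The fitted difference was 0.44 ± 0.10 (SE, n = 4 arrays; limma adjusted p = 0.0369). Probe BTAA025558 had 7.92, 8.34, 8.26 and 8.41 in NHSM against 7.55, 8.17, 7.93 and 7.87 in SOF, a difference of 0.35 ± 0.08 (SE, n = 4 arrays; limma adjusted p = 0.0385). On both probes NHSM was higher on all 4 arrays, by the least on array 2 and by the most on array 4, and the media overlapped. The other 5 PAG2 probes had fitted differences from 0.17 (BTAA025586) to 0.39 (BTAA025752), with adjusted p from 0.0742 to 0.294. On array 2 the ratios of these 2 probes were -0.02 and -0.02. When each gene was represented by the mean of its probes, PAG2 differed by 0.34 with an adjusted p of 0.0425 over all genes, and when it was represented by its brightest probe, BTAA025752, the adjusted p was 0.0926.

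PAG8, PAG10 and PAG12 are the other ancient members. The PAG8 probe BTAA000103 had 9.78, 9.34, 9.10 and 9.23 in the NHSM pools and 8.91, 9.14, 8.83 and 8.95 in the SOF pools. NHSM was higher on every array, most of all on array 1, and the lowest NHSM pool lay below the highest SOF pool. The fitted difference, 0.41 ± 0.10 (SE, n = 4 arrays), missed the threshold over probes (adjusted p = 0.056) and passed it over genes at 1 probe each (adjusted p = 0.0477). The second PAG8 probe, BTAA020124, had a fitted difference of 0.14 (95% interval -0.06 to 0.34) and ratios of -0.05, 0.31, 0.27 and 0.03 on arrays 1 to 4. So the PAG8 probes did not share their array of largest difference.

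PAG12 was read by 3 probes that did not move together. Probe BTAA016659 was the brightest member, with a mean log2 intensity of 15.6 in both media, and its spot was saturated in the Cy5 channel of arrays 3 and 4, that is in 1 SOF and 1 NHSM pool, so that those levels are lower bounds. As read, its NHSM levels were 15.98, 14.92, 15.75 and 15.55 and its SOF levels 14.89, 15.78, 15.73 and 16.05. On the arrays without saturation NHSM was the higher pool on array 1, with a ratio of 1.09, and the lower pool on array 2, with a ratio of -0.86. On array 3 the ratio was at most 0.02 and on array 4 at least -0.50. The fit to the readings as they stand gave -0.06 (95% interval -0.44 to 0.31, adjusted p = 0.937), the widest interval among the members, and it takes these bounds as values.

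Probe BTAA041197 of PAG12 was dim and flat, between 7.06 and 7.28 in all 8 pools, and correlated with the readings of BTAA016659, saturated ones included, at r = -0.61 over the pools. The last, BTAA025595, was above the floor in 3 pools of each medium and had a fitted difference of 0.26 ± 0.08 (SE, n = 4 arrays; limma adjusted p = 0.104), with NHSM higher on all 4 arrays. A level of PAG12 as a gene therefore depends on the probe. Both PAG10 probes were at the floor in all 8 pools, and no fold change is given for them.

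Among the modern members PAG4 gave the clearest separation. Its only probe, BTAA016972, had 7.85, 7.74, 7.64 and 7.95 in the NHSM pools and 7.31, 7.62, 7.31 and 7.37 in the SOF pools. Every NHSM pool was above every SOF pool, although by only 0.02 between the nearest, and PAG4 was the 1 member probe of 36 (2.78%) without overlap, against 7.87% of all gene probes. The difference was 0.40 ± 0.09 (SE, n = 4 arrays), or 1.32-fold (limma adjusted p = 0.0417). PAG5, also with 1 probe (BTAA019377), had 8.70, 8.50, 8.26 and 8.94 in NHSM and 8.23, 8.51, 8.09 and 8.46 in SOF. It was higher in NHSM on arrays 1, 3 and 4 and level on array 2, and its difference of 0.28 (95% interval 0.05 to 0.51) did not pass (adjusted p = 0.165).

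PAG6 had 4 probes. BTAA017171 stood at 10.59, 10.07, 9.82 and 10.20 in NHSM and at 9.71, 9.98, 9.65 and 9.79 in SOF, and BTAA009259 at 7.96, 7.50, 7.32 and 7.44 against 7.23, 7.40, 7.16 and 7.28. Both were higher in NHSM on all 4 arrays, mostly through the NHSM pool of array 1, with fitted differences of 0.39 ± 0.12 and 0.29 ± 0.10 (SE, n = 4 arrays; limma adjusted p = 0.109 and 0.148). Another probe, BTAA025619, was also above the floor in every pool and showed no such shift (-0.03, 95% interval -0.21 to 0.14). The fourth was above the floor in 2 NHSM pools and in none of SOF.

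PAG17 had 8 probes, of which 3 were above the floor in all pools. BTAA019342 had 10.70, 10.13, 9.88 and 10.27 in NHSM and 9.71, 10.11, 9.68 and 9.91 in SOF, with a ratio of 0.99 on array 1 and of 0.02 on array 2. The difference of 0.39 ± 0.13 (SE, n = 4 arrays) did not pass (limma adjusted p = 0.13), and neither did that of BTAA026220 (0.33, adjusted p = 0.217) or of BTAA025588 (0.12, adjusted p = 0.556). The remaining 5 PAG17 probes were above the floor in 1 to 3 NHSM pools and in 1 or 2 SOF pools, with fitted differences between -0.07 and 0.18. Without array 3, BTAA019342 passed at 0.59 and was the only member to pass with 1.5-fold under any alternative that was run.

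The single probes of PAG9 and PAG20 showed no shift. PAG9 (BTAA014095) ranged from 6.93 to 7.14 in NHSM and from 7.01 to 7.10 in SOF, with a difference of -0.04 (95% interval -0.19 to 0.11). PAG20 (BTAA006886) had 7.75, 7.51, 7.37 and 7.35 in NHSM and 7.76, 7.22, 7.91 and 7.12 in SOF. Its SOF pools spread more widely than its NHSM pools, the ratio ran from -0.54 on array 3 to 0.29 on array 2, and the difference was -0.0042 (95% interval -0.23 to 0.22). The intervals of both end below 0.45, the highest PAG2 estimate.

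**Figure D2:**
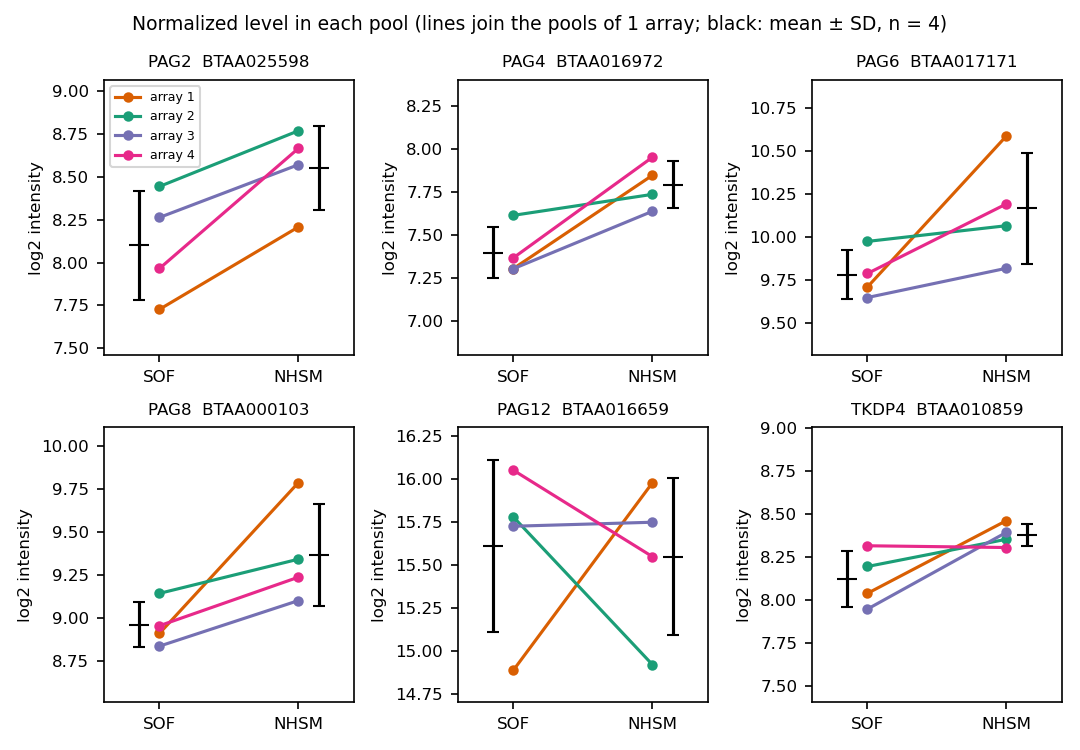
Normalized log2 intensity (vertical axis) in the SOF and the NHSM pool of each array for 6 member probes, with a line joining the 2 pools of 1 array and the mean ± SD of the 4 pools in black. All panels span the same number of log2 units. PAG2, PAG4, PAG6 and PAG8 rise from SOF to NHSM on every array, steepest on array 1 for PAG6 and PAG8, while the lines of PAG12, where the SOF reading of array 3 and the NHSM reading of array 4 are saturated, cross.

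The Kunitz family was less well measured. TKDP1 had 1 probe (BTAA008779), above the floor in 3 pools of each medium, with 7.12, 7.44, 7.71 and 7.10 in NHSM and 6.71, 7.40, 8.03 and 7.17 in SOF. Its array ratios of 0.41, 0.04, -0.32 and -0.07 have no common sign, and the fitted difference was 0.02 (95% interval -0.25 to 0.29). TKDP4 had 4 probes. BTAA010859 had 8.46, 8.35, 8.39 and 8.30 in NHSM against 8.04, 8.19, 7.95 and 8.31 in SOF. The NHSM pools lay close together and the SOF pools spread below them, apart from the SOF pool of array 4, which was at the same level. The difference of 0.25 ± 0.07 (SE, n = 4 arrays) missed the threshold (limma adjusted p = 0.0657). A second TKDP4 probe, BTAA041694, was also above the floor in all pools and had a difference of -0.01 (95% interval -0.17 to 0.14), and the last 2 were at the floor in all 8 pools. The 5 TKDP probes had a median of -0.01, against 0.18 for the 31 PAG probes. For the probes above the floor in all 4 pools of a medium, the medians were 0.12 (2 TKDP probes) and 0.31 (22 PAG probes). This difference between the families was not tested.

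By group, the 15 ancient PAG probes had a median log2 fold change of 0.26 and 3 that passed, and the 16 modern ones a median of 0.08 and 1 that passed. PAG2 alone held 8 of the ancient probes, all above the floor, and the 3 that passed. Restricted to probes above the floor in all 4 pools of a medium, the medians were 0.34 (12 ancient probes) and 0.28 (10 modern probes). The 6 modern probes left out by this restriction, 5 of PAG17 and 1 of PAG6, had fitted differences between -0.07 and 0.18.

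The arrays differed in how far the PAGs were shifted. Over the 22 PAG probes above the floor, the median ratio was 0.47 on array 1, 0.08 on array 2, 0.17 on array 3 and 0.36 on array 4, and 17, 15, 19 and 21 of them were above 0. The NHSM pool was in Cy3 on array 1 and in Cy5 on array 4, so both labellings held an array with a large and an array with a small shift. Within the Cy3 pair the medians were 0.47 and 0.17, and within the Cy5 pair 0.08 and 0.36. The mean level of the 20 PAG probes above the floor in all 8 pools was 8.98, 8.78, 8.71 and 8.93 in NHSM and 8.45, 8.75, 8.57 and 8.58 in SOF. The NHSM pool was the higher one on every array, by only 0.03 on array 2. This mean includes PAG12 BTAA016659, which had a ratio of -0.86 on array 2. Its readings in the SOF pool of array 3 and the NHSM pool of array 4 are saturated.

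**Figure D3:**
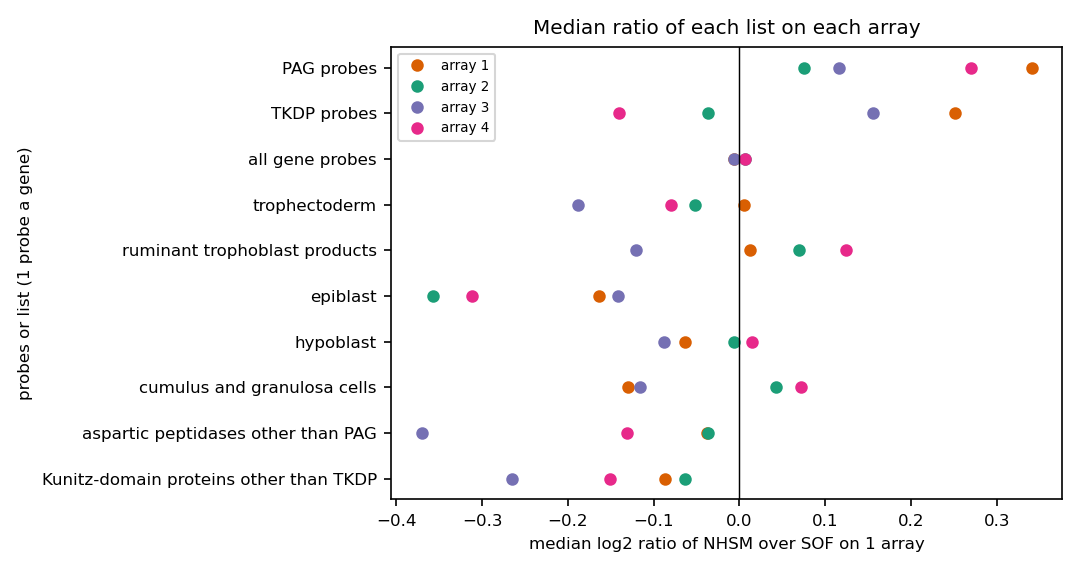
Median log2 ratio of NHSM over SOF on each array (horizontal axis, 1 coloured point per array) for the PAG probes, the TKDP probes, all gene probes and 7 lists of marker or related genes at 1 probe per gene (vertical axis). The PAG medians lie right of 0 on all 4 arrays, the epiblast medians left of 0 on all 4, and the trophectoderm medians between -0.19 and 0.01.

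The 22 member probes above the floor in all 8 pools were correlated with each other over the pools, as a description, since the pools of 1 array share its spots and the media differ. Probes of 1 gene had a median r of 0.79 (36 pairs), probes of 2 PAG genes 0.38 (155 pairs), and a PAG with a TKDP probe 0.31 (40 pairs). The highest r was not within a gene but between PAG6 BTAA017171 and PAG17 BTAA019342 (0.99).

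After the values were seen, 2 sets of probes stood out. The first held 6 probes under 4 names, PAG2 BTAA018483, PAG6 BTAA017171 and BTAA009259, PAG8 BTAA000103, and PAG17 BTAA019342 and BTAA026220, with r between 0.92 and 0.99 in their 15 pairs. Their mean level was 9.67 in the NHSM pool of array 1 and between 8.94 and 9.21 in the other NHSM pools, against 8.78 to 9.05 in SOF. The second set held 5 PAG2 probes (BTAA025598, BTAA025558, BTAA025605, BTAA020118 and BTAA013184), with r between 0.84 and 0.97. Their mean level was lowest in the pools of array 1 in both media, at 7.79 in NHSM and 7.36 in SOF, while the other pools were at 8.06 to 8.27 in NHSM and at 7.67 to 7.94 in SOF. Between the sets, which were picked by their r, it ran from 0.04 to 0.53. Of the probes left out of both sets, some followed both and others, such as PAG20, neither. PAG20 had r from -0.07 to 0.21 with the first set and from -0.45 to -0.22 with the second. PAG2 BTAA025752 had r from 0.75 to 0.89 with the first set and from 0.56 to 0.81 with the second. For PAG4, r ran from 0.72 to 0.84 with the first set and from 0.62 to 0.85 with the second. The array's names did not separate the sets, as 1 PAG2 probe followed PAG6, PAG8 and PAG17 rather than the 5 PAG2 probes of the second set.

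**Figure D4:**
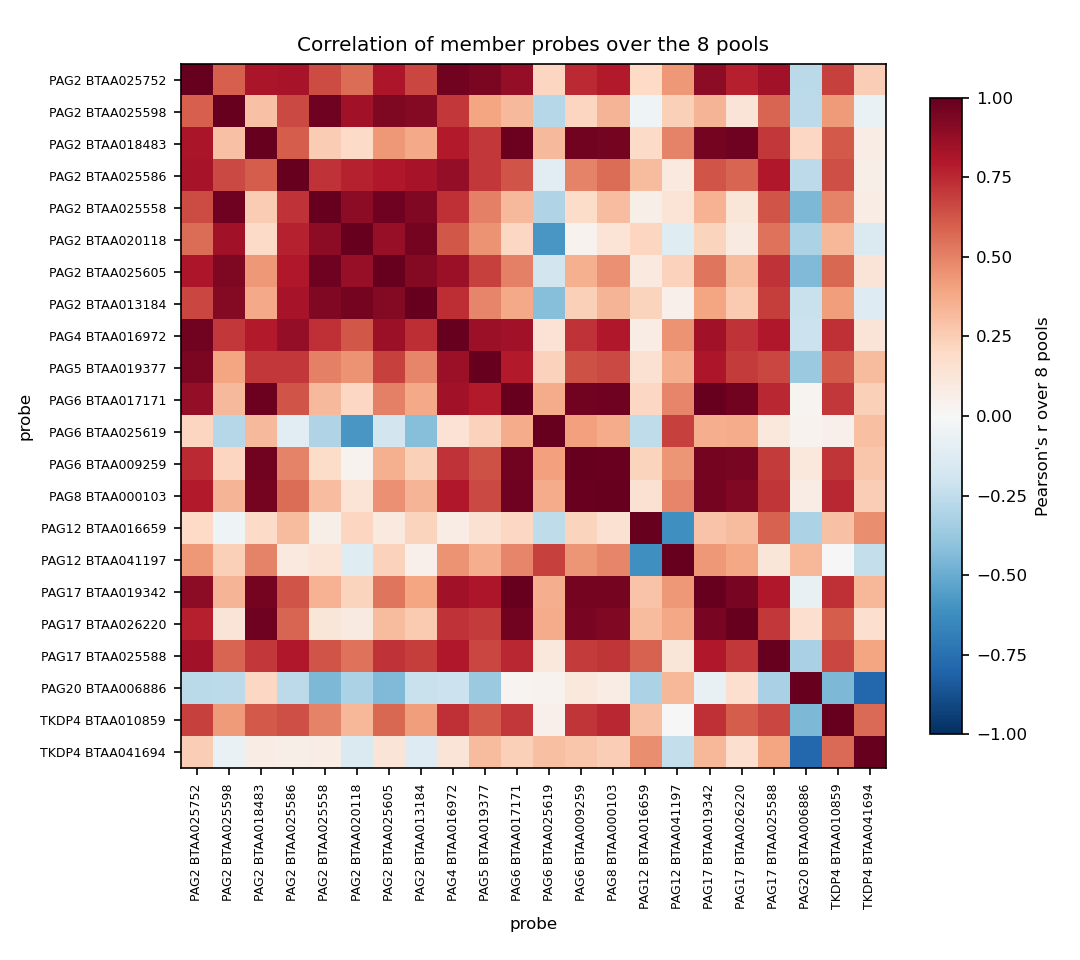
Pearson's r over the 8 pools between the 22 member probes above the floor in every pool (both axes list the gene and probe). A block of 5 PAG2 probes (r from 0.84 to 0.97) and a second pattern shared by probes of PAG2, PAG6, PAG8 and PAG17 (r from 0.92 to 0.99) are visible. PAG2 BTAA025752 and PAG4 follow probes of both, while PAG20, PAG12, PAG6 BTAA025619 and 1 TKDP4 probe follow neither.

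Other genes followed some of these profiles about as closely as another PAG did, among 7793 candidate genes. For PAG2 BTAA025598 the nearest was GRB2 (r = 0.99), which had an adjusted p of 0.107, followed by SPRING1 and FAIM (both r = 0.97). For PAG4 they were PRRC1 (r = 0.99), ARHGEF26 (0.98) and PACSIN2 (0.97), and for PAG8 BTAA000103 AKIRIN2 (0.98). GADD45B was the nearest gene to PAG6 BTAA017171 (r = 0.95), PAG2 BTAA018483 (0.96) and PAG17 BTAA026220 (0.94). For TKDP4 BTAA010859 it was ZFYVE16 (r = 0.99). Each is the highest of many values of r over 8 pools, and all are given as a description.

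Genes that mark the cell types of the blastocyst were set beside the PAGs, at 1 probe per gene, where 746 of 12545 genes were higher and 745 lower. Listed genes without a named probe were left out, here and in the lists below. Of 19 listed trophectoderm markers 15 had a named probe, and CDX2 was not among them. Of the 15, 1 was higher, the keratin KRT7 (0.40), and 2 were lower, the transcription factors GATA2 (-0.35) and TFAP2A (-0.46). The median over the 15 was -0.06. The count of higher markers was 0 without array 2 and without array 4, and that of lower markers 1 without array 2 and 0 without array 4. All but 3 of the 15 were above the floor in all 4 pools of a medium, and ELF5, a trophectoderm factor, in 1 pool of each. The mean level of the list was 9.80 to 9.99 in NHSM and 9.87 to 9.99 in SOF, so that the ranges overlapped. Over the 8 pools the mean PAG level correlated with the trophectoderm mean of the 12 markers above the floor in every pool at r = -0.25. It correlated with the epiblast mean at -0.68, with the hypoblast mean at -0.55 and with the mean of cumulus and granulosa markers at -0.20, each n = 8 pools that share 4 arrays. The other lists also gave negative values. These were -0.06 for other ruminant trophoblast products, -0.26 for other aspartic peptidases and -0.38 for other Kunitz-domain proteins. Pools of both media enter each r, so it also carries the differences between the media. The mean PAG level behind each r includes the saturated PAG12 readings.

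Of 14 listed epiblast markers 5 had a named probe, and POU5F1 was not among them. Of the 5, 3 were lower in NHSM, NANOG (-0.31), SOX2 (-0.32) and PRDM14 (-0.32), and 0 higher. The count of 3 fell to 0 without array 2, without array 4, with median centring, without the dye term and without the array as a pair, and to 1 without array 1. From these arrays the study reports SOX2 and POU5F1 at similar levels in both media. It reports NANOG as lower in NHSM, which its quantitative PCR did not reproduce. The epiblast list had mean levels of 8.78 to 8.99 in NHSM and of 8.95 to 9.15 in SOF. Of 12 hypoblast markers 2 were lower, SPARC (-0.58), a matrix glycoprotein, and GATA6 (-0.44), and the means were 8.79 to 8.98 against 8.88 to 9.03. Of 9 cumulus and granulosa markers 1 was higher, the FSH receptor FSHR (0.44), and the means were 8.86 to 8.97 against 8.80 to 9.07. Without array 2 the hypoblast count was 1 and the FSHR call was lost, and without array 1 a cumulus and granulosa marker was lower. The part of these cell types in the PAG shift was not tested.

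Of 25 other products and regulators of the ruminant trophoblast with a named probe, 4 were higher, namely PLET1 (1.36), a trophoblast surface protein, the estrogen sulfotransferase SULT1E1 (1.15), the steroid dehydrogenase HSD3B1 (0.88) and the galectin LGALS1 (0.52). The glucose transporter SLC2A1 (-0.34) and the secreted phosphoprotein SPP1 (-0.28) were lower, and 19 did not pass, with a median of -0.03. The lower count was 0 without array 2 and without array 4. The interferon tau genes of this list have no probe under the symbols listed and were not analysed here. The study, which names such a gene by another symbol, reports interferon tau as lower in NHSM on these arrays. LGALS1, SLC2A1 and SPP1 are expressed in many other cells as well. The prolactin-related PRP1 had a difference of -0.48 that did not pass (adjusted p = 0.376). Among 6 aspartic peptidases outside the PAG family the signal peptide peptidase HM13 (-0.39) was lower and none was higher. Among 11 other Kunitz-domain proteins the amyloid precursor APP (-0.56) was lower and none was higher. The HM13 call was lost without array 2 and without array 4 and that of APP without array 2, while without array 1 each of these lists had 2 lower genes. The members at 1 probe per gene had a median of 0.27, with 1 of 12 passing over all probes.

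A further 4 probes carry the symbol PAG1. In RefSeq this symbol is a membrane adaptor on chromosome 14, and it is also an older name of a PAG gene on chromosome 29, and the annotation does not say which is meant, so they were left out of all counts. Their fitted differences were -0.16, -0.03, -0.03 and 0.03, and none passed. None of them was above the floor in all 4 pools of a medium.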

How the data were processed

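The authors hybridized 4 dual-channel bovine V2 arrays with RNA amplified in 2 rounds, extracted mean spot intensities with Imagene, applied a loess normalization and a correction for gene-specific dye bias, and used MAANOVA for their tests. The deposited scanner files hold spot intensities on a linear scale, without normalization. The deposited table holds log2 ratios of Cy5 over Cy3 after the authors' normalization, and served as an alternative. Of its columns, medians lay between -0.00858 and 0.00871. The genome build of the probe annotation is not given in the sources used here.

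Here the mean intensities were turned into log2 ratios without background correction, normalized by loess within arrays (1567 control spots at weight 0), and fitted in limma 3.58.1 (R 4.3.3). The model held the medium and a dye effect, which leaves 2 residual degrees of freedom beside 5.33 prior ones. Benjamini-Hochberg values cover 43653 gene probes. Levels are loess and Aquantile normalized log2 intensities. They were averaged over probes for sets and lists, and differences in level between probes were not tested. The floor was the 95th percentile of the spots of 2 control probes, per channel. Of 27952 named probes, 25823 carried a symbol that RefSeq (ARS-UCD2.0) still uses and 1831 got theirs through a synonym, and no coordinates were used. The fit was tested on simulated data.

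All members and all their probes are named. For each member probe above the floor in all pools the 3 genes nearest by Pearson's r over 8 pools were computed, the text gives those of the main probes, and up to 4 genes of a list that passed are named. The members and the gene lists were chosen with earlier results of these data known. Channels of 1 array share their spots, so the pools of an array were compared with each other. Precision is limited by the number of arrays.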

Additional observations from a re-analysis of the deposited data

Results flagged for a closer look

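The log2 ratio of NHSM over SOF on array 1 stood apart from the other arrays for 2 member probes by Dixon's criterion at the 95% level. For PAG6 BTAA009259 it was 0.74, against 0.10 to 0.16 on arrays 2 to 4. For PAG8 BTAA000103 it was 0.88, against 0.20 to 0.28. Both belong to the 6 probes of PAG2, PAG6, PAG8 and PAG17 that followed each other over the pools, so they are not independent of each other. In all, 72 groups of 4 values were examined, and chance flags about 1 in 20 such groups.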

How the results depend on the processing

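The count of 4 member probes higher in NHSM changed with the processing. It was 8 after median centring instead of loess, 8 when only probes above the floor were tested, 1 without the dye term and 0 when the channels were compared without the array as a pair (no replicate block), where the adjusted p of the 4 ranged from 0.116 to 0.453. It was 5 with normexp correction, 5 with a variance trend and 4 with the deposited ratios. Leaving out 1 array gave 0 (without array 4) to 12 (without array 3) higher, 0 to 1 (without array 1) lower, namely PAG12 BTAA016659, saturated on 2 of the 3 arrays then left, and 0 to 1 (without array 3) called higher at 1.5-fold. The median over the member probes, 0.15, was 0.28 with dim probes left out and 0.14 to 0.19 without 1 array.

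Members above the floor numbered 11 with the 99th percentile of control spots. PAG2 BTAA025598 was among them, while PAG2 BTAA025605 and BTAA025558 and PAG4 BTAA016972, which had passed in the main fit, were not. In the 7 lists, the 6 higher genes became 3 without the dye term and 3 without the replicate block (4 to 6 without 1 array). The 11 lower genes became 4 with median centring, 4 without the dye term and 2 without the replicate block (2, without array 2, to 13).

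Among members above the floor, the sign turned only for those within 0.07 of 0. Leaving out 1 array gave -0.10 to 0.037 for PAG6 BTAA025619, -0.33 to 0.20 for PAG12 BTAA016659, -0.14 to 0.13 for PAG20 and -0.031 to 0.0047 for TKDP4 BTAA041694. With the deposited ratios PAG20 was 0.049, with median centring TKDP4 BTAA041694 was 0.010, and by the mean of its probes PAG12 was 0.079.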
